A study of Brassica oleracea with 12 samples.

Results

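Genes annotated to cell wall organization (a gene ontology term) were followed through leaf development in an ornamental kale, Brassica oleracea var. acephala cultivar JC007-2B, whose leaves turn from red to red with a green margin. All entries of the gene table with this term were taken except those that also carried the peroxidase or microtubule terms, which left out 0 entries, and 3 gene names set aside by the rule, of which EXGT-A1 carried the term. This gave 206 of the 45714 entries, and 102 of them reached 1 FPKM (fragments per kilobase of transcript, scaled to the mapped fragments of the library) in at least 3 of the 12 libraries and were tested among 27272 such genes. The rule itself used no measured difference between groups, but it was set with earlier results of these data known. The filter used measured levels, and some members passed it only through a few libraries. All 12 libraries came from leaves of the same cultivar, with no treatment named. S1 was the red leaf, taken whole without its veins. S2 was also the whole leaf without veins, at the stage with a green margin and red in the center. S3_C was the red center and S3_S the green margin of the leaf at the third stage, and each of the 4 groups had 3 libraries. The age of the leaves is not given in the sources used here, and the labels do not say whether replicates were grown as different plants. Every p-value therefore reflects the spread among these samples alone, which may be technical.

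The plant primary wall is a network of cellulose microfibrils, tied together by xyloglucan and other hemicelluloses and embedded in a gel of pectin. Cellulose synthases (CESA) in the plasma membrane spin out the cellulose, and related cellulose synthase-like (CSL) proteins make backbones of other polysaccharides. Xyloglucan endotransglucosylase/hydrolases (XTH) cut and rejoin xyloglucan chains in the wall, which is one of the ways a growing wall is loosened and repaired. Galacturonosyltransferases build the homogalacturonan backbone of pectin in the Golgi. In the wall, pectin methylesterases (here called pectinesterases, as in the annotation) and pectin acetylesterases trim its side groups, and polygalacturonases cut the backbone. In leaves these enzymes are best known for their part in cell expansion and in laying down vein walls.

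By the molecular function terms and product names, the 206 entries fell into 35 XTH entries (18 tested), 34 of the cellulose synthase family (23), 31 of the galacturonosyltransferase family (23), 56 of the polygalacturonase family (16), 19 pectinesterases (5), 19 pectin acetylesterases (14) and 12 others (3). Of the 104 not tested, 0 were listed at 0 in all libraries and 87 never reached 1 FPKM, so that most of the polygalacturonase and pectinesterase entries were too low to be compared. The tested members nearest to the limit were Bo3g012630, CESA8 and Bo2g160790, with a third-highest value of 1.06, 1.13 and 1.19 FPKM, and the nearest on the other side were ATXTH21, Bo7g106880 and XTH33 with 0.919, 0.888 and 0.879 FPKM. Among the tested, 8 entries name more than 1 annotated gene, and each has a single value for all of its genes. One of these, Bo5g007730 merged with PSBW, holds a photosystem II subunit beside the hexosyltransferase. The polygalacturonase family member Bo8g077580 is described as a tetratricopeptide repeat protein.

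FPKM summed to between 426981 and 470320 per library, and the sequencing depth is unknown. Libraries did not sort cleanly by group. S1 replicate 1 had r = 0.75 and 0.76 with the other S1 libraries over all tested genes and r = 0.94 with S2 replicate 2. S3_S replicate 3 had r = 0.91 with S1 replicate 3 and r = 0.85 with both of the other S3_S libraries. These correlations run across genes, which are not independent replicates, and summary counts are given with and without them where they move. The leaf label was checked against photosynthesis markers. LHCA4, a light harvesting protein of photosystem I, had at least 229 FPKM in every library, while LHCB3 was listed at 0 in 11 of 12. Epidermis was marked by CUT1, a gene of cuticle wax synthesis, at up to 2.76 FPKM, and of the phloem list 0 genes were matched. Because whole pieces of leaf were sequenced, fewer cells of a type and less RNA per cell cannot be told apart.

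Over the 4 groups, cell wall organization genes had their highest mean mostly in the green margin or in S1, and seldom in S2. The highest group mean was in S3_S for 53 of the 102 members (52.0%, against 26.6% of all tested genes), in S1 for 34 (33.3% against 38.9%), in S3_C for 13 (12.7% against 17.8%) and in S2 for 2 (1.96% against 16.7%). Which of S3_S and S1 led depended on the libraries that stood apart. Without S1 replicate 1 the count was 41 in S3_S and 45 in S1 (22.0% and 43.9% of all tested genes). Without S3_S replicate 3 it was 43 and 44 (29.0% and 40.5%), and without both it was 39 and 48 (25.7% and 44.0%). With all libraries, the cellulose synthase family had 16 of 23 members highest in S3_S and 1 in S1. The polygalacturonase family was divided between S1 (9 of 16) and S3_S (7), and the XTH class between S3_S (9 of 18), S1 (7) and S3_C (2). Without both libraries the cellulose synthase family had 13 highest in S3_S and 5 in S1, the polygalacturonase family 3 and 13, and the XTH class 6 and 10. With all libraries the galacturonosyltransferase family had 12 of 23 highest in S3_S and 8 in S1, and the pectin acetylesterases had 6 of 14 in S1, 4 in S3_S, 3 in S3_C and 1 in S2.

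**Figure D1:**
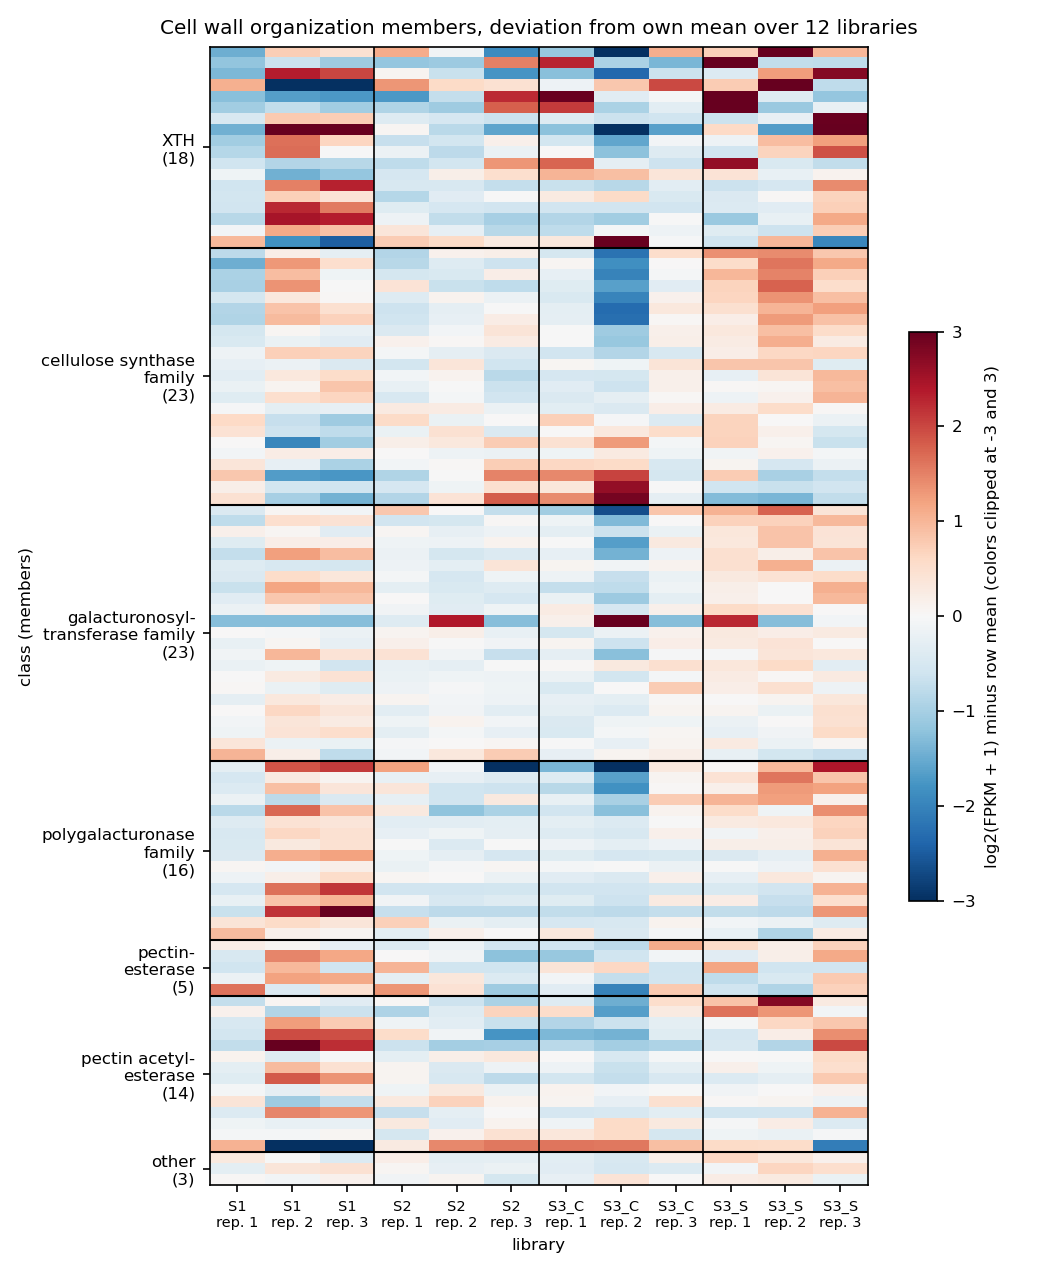
Deviation of each of the 102 tested members (rows, ordered within class by their mean in S3_S) from its own mean over the 12 libraries (columns), in log2(FPKM + 1), with red above and blue below the row mean and colors clipped at -3 and 3. S3_C replicate 2 is the lowest library for 48 members, and S1 replicates 2 and 3 and S3_S replicate 3 are red together for many entries of the XTH and polygalacturonase classes.

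Single libraries weighed heavily within groups. S3_C replicate 2 was the lowest library for 48 of the 102 members (47.1%, against 26.7% of all tested genes), and its median deviation from each member's own mean was -0.55 on the log2(FPKM + 1) scale (-0.25 over all tested genes). The other S3_C libraries had median deviations of -0.26 and -0.02. In S3_S they were 0.18, 0.16 and 0.49, in S2 -0.14, -0.21 and -0.18, and in S1 -0.31, 0.29 and 0.21. The 3 S3_S libraries were thus all above 0 and the 3 S2 libraries all below, while S1 was split, with replicate 1 low. The members' summed FPKM ran from 2111 in S1 replicate 3 to 5101 in S3_S replicate 2, which amounted to 0.449% and 1.15% of the library totals. A single XTH, Bo7g114380, contributed 2088 FPKM to the highest sum.

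**Figure D2:**
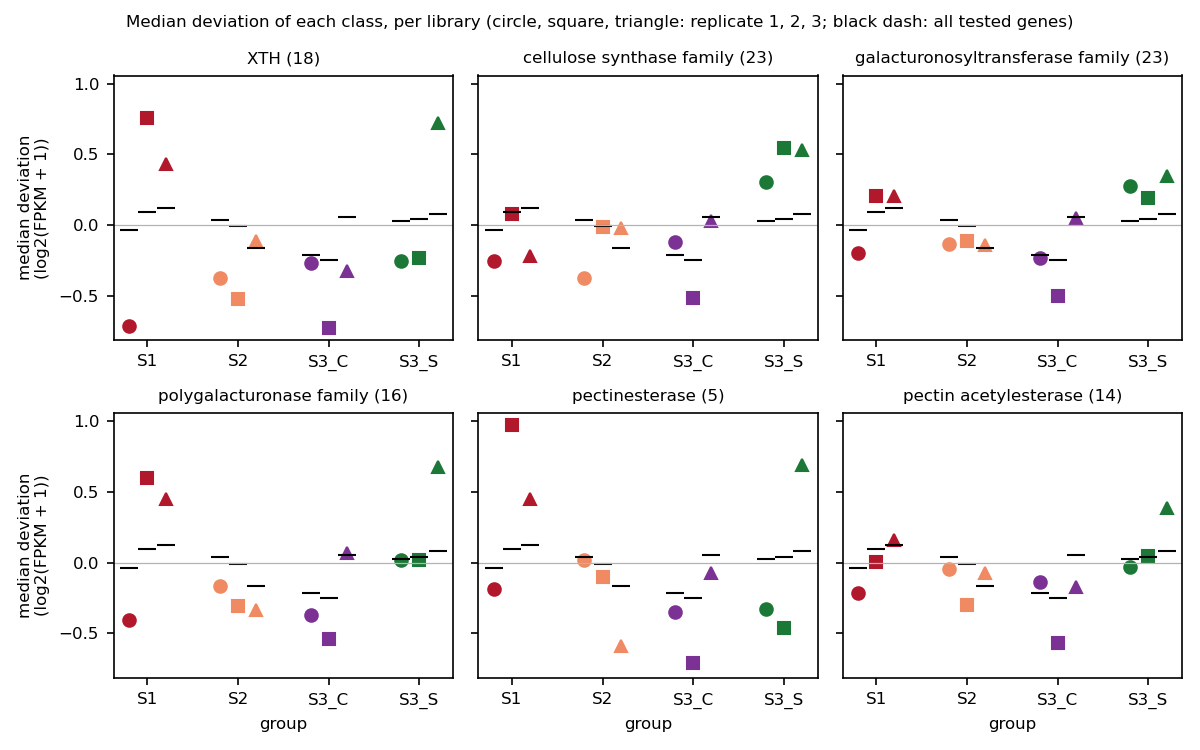
Median deviation of the members of each class from their own mean (vertical axis, log2(FPKM + 1)) for every library, by group (horizontal axis), with circles, squares and triangles for replicates 1, 2 and 3 and black dashes for all 27272 tested genes. The cellulose synthase and galacturonosyltransferase families are above 0 in all 3 S3_S libraries, whereas XTH, polygalacturonase and pectinesterase entries are at their highest in S1 replicates 2 and 3 and S3_S replicate 3.

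With the fit across all 12 libraries (limma on log2(FPKM + 1), Benjamini-Hochberg adjustment over all tested genes, called at an adjusted p under 0.05), 0 members were called in any of the 6 comparisons. The background was 2 called genes of 27272 (0.00733%) in S2 against S1, the same share (0.00733%) in S3_C against S1 and in S3_S against S1 (0.00733%), and 0% in S3_C against S2, S3_S against S2 and S3_S against S3_C. The moderated F test of any difference among the 4 groups called 0 members (background 0.00733%), and the smallest adjusted p of a member was 0.502. At an unadjusted p under 0.05 that F test held 15 members (14.7%) against a background of 8.15%. None of the differences given below for single members therefore passed the test in the fit with all libraries, and their values stand as descriptions. Adjusted p values cited from the fit without S1 replicate 1 follow a choice made on the same values and describe the remaining libraries only.

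The comparison of the green margin with the red center at the third stage (S3_S against S3_C) asks how the bicolored parts of 1 leaf stage differ. Cell wall organization genes were mostly higher in the margin, as were most tested genes. A fitted log2 change above 0 was found for 82 of 102 (80.4%, against 65.5% of all tested genes). The median was 0.55 against 0.18 over all tested genes. At an unadjusted p under 0.05, 27 members were higher (26.5%, background 7.47%) and 2 lower (1.96%, background 2.89%), and limma called 0 with a smallest adjusted p of 0.476. In 29 members every S3_S library lay above every S3_C library (background 11.9%) and in 3 every one lay below (background 4.85%). The 27 were made up of 10 of the 23 cellulose synthase family entries, 8 of the 23 galacturonosyltransferase family, 4 of the 16 polygalacturonase family, 2 of the 14 pectin acetylesterases, 2 of the 18 XTH entries and 1 of the 3 others. Both lower ones belonged to the cellulose synthase family. With median-of-ratios scaling the median of all genes moved from 0.18 to 0.01 and that of the members from 0.55 to 0.36, so that the members lay above all genes by 0.36 and 0.35. The same scaling left 20 members higher and 2 lower, against 4.70% and 5.32% of all tested genes. The count depended on S3_C replicate 2, without which 9 members were higher and 0 lower (background 1.36% and 1.20%), and on S3_S replicate 2, without which 14 were higher and 2 lower (background 4.68% and 2.41%). Without S3_S replicate 3, 18 were higher and 2 lower (background 4.50% and 1.77%), and 78 of 102 lay above 0 (76.5%, against 64.1%). The median was then 0.38 against 0.16 over all genes, a distance of 0.22. For the 9 members named by the rule whose difference between S3_S and S3_C is given below, the fitted values lay between 0.57 and 1.74 with all libraries and between 0.69 and 1.77 without S3_S replicate 3. These 9 had their smallest unadjusted p of the 6 comparisons in this one, so the size of their values follows in part from that choice. Their values without S3_C replicate 2 or S3_S replicate 2 are not given here. Without S3_C replicate 2, 81 of 102 members had a log2 change above 0, and the median was 0.39 against 0.13. The share of all tested genes above 0 in that fit is not given here.

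**Figure D3:**
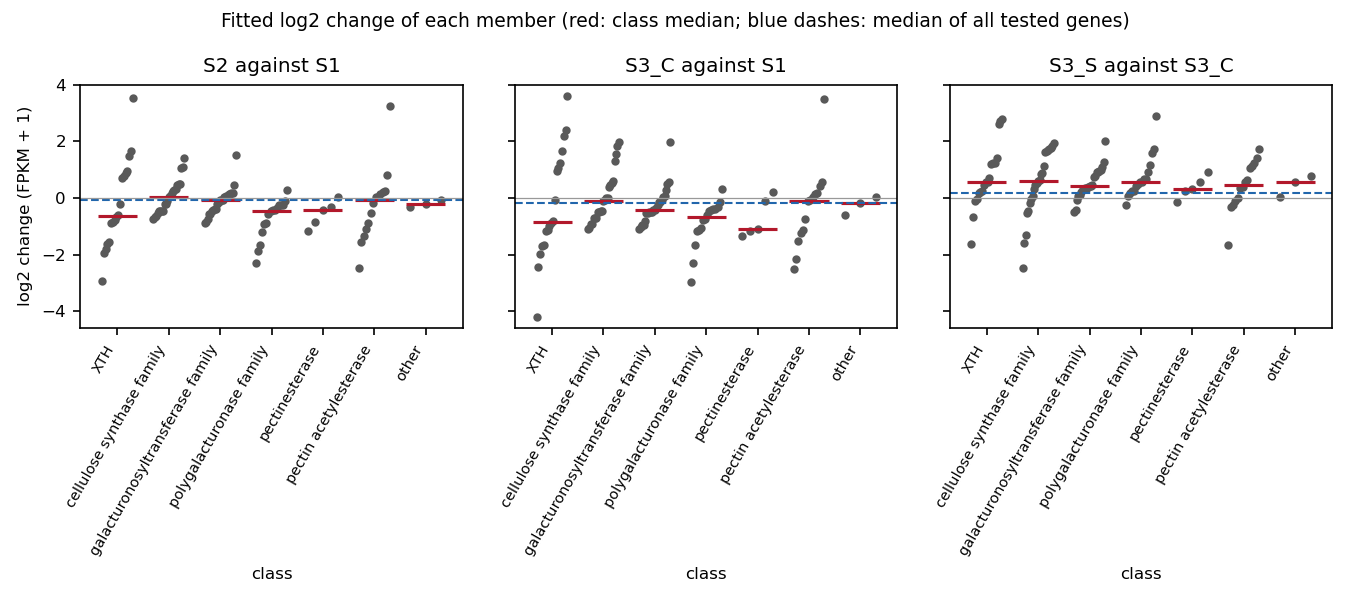
Fitted log2 change of each member (gray points, vertical axis, log2(FPKM + 1)) by class (horizontal axis) in 3 comparisons, with class medians in red and the median of all tested genes as a blue dashed line. In S3_S against S3_C the median of every class lies above that of all genes (0.18), while in S3_C against S1 the XTH median is -0.85 and the polygalacturonase median -0.67, against -0.18 over all genes.

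Cellulose synthase family entries were the most numerous class among the 27. Values are listed in the order of replicates 1, 2 and 3. The most abundant, Bo2g006860, described as a cellulose synthase, had 82.3, 97.6 and 88.4 FPKM in S1, 123, 115 and 134 in S2, 112, 50.6 and 127 in S3_C, and 134, 240.1 and 134 in S3_S. All 3 S3_S values were above every other library, the lowest of them by a narrow distance from S2 replicate 3. The fitted difference between S3_S and S1 was 0.86 ± 0.36 (log2, SE), with an adjusted p of 0.824. The next, Bo1g010450, had 47.1, 71.4 and 59.0 FPKM in S1, 50.6, 64.5 and 90.5 in S2, 67.9, 32.5 and 77.3 in S3_C, and 85.4, 130.2 and 101 in S3_S. Its S3_S libraries held 2 of its 3 highest values, the other being S2 replicate 3, and the difference between S3_S and S3_C was 0.89 ± 0.35 (adjusted p = 0.476). Its groups overlapped with S2 and did not overlap with S3_C.

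Bo3g100970, also a cellulose synthase by its description, had 8.14, 15.4 and 12.4 FPKM in S1, 9.07, 13.1 and 10.6 in S2, 8.57, 2.33 and 13.2 in S3_C, and 19.4, 32.3 and 23.4 in S3_S. The margin libraries were again the 3 highest of all 12, and the group means were 25.1 ± 6.59 FPKM in S3_S and 8.03 ± 5.45 FPKM in S3_C (SD, n = 3). The fitted difference was 1.73 ± 0.46 (adjusted p = 0.476). Bo5g150290, which carries the cellulose synthase term without a description, was low, with 1.01, 2.64 and 2.52 FPKM in S1, 1.15, 0.841 and 0.658 in S2, 0.488, 0.215 and 0.599 in S3_C, and 1.57, 2.42 and 2.50 in S3_S. It was lowest in S3_C, whose 3 libraries lay below all others, and S3_S and S3_C differed by 1.14 ± 0.28 (adjusted p = 0.476). Without S1 replicate 1 it was called lower than S1 in S3_C, by -1.33 ± 0.25 (adjusted p = 0.00875), and in S2, by -0.93 ± 0.25 (adjusted p = 0.0340). Bo2g166370, chosen after its values were seen, was the only other member of the family whose 3 highest libraries were the 3 of S3_S, with 9.02, 18.8 and 13.3 FPKM in S1, 8.40, 17.7 and 18.3 in S2, 11.0, 2.72 and 24.0 in S3_C, and 43.5, 45.1 and 29.2 in S3_S.

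CESA genes are known in Arabidopsis for either the primary or the secondary wall. CESA2 and CESA5, which serve the primary wall, were named here outside the rule. CESA5 had 1.34, 15.1 and 8.20 FPKM in S1, 2.64, 3.96 and 3.24 in S2, 5.75, 0.832 and 5.58 in S3_C, and 8.55, 18.8 and 13.2 in S3_S. CESA2 had 0.681, 7.41 and 2.24 FPKM in S1, 3.39, 1.06 and 0.949 in S2, 1.53, 0.0638 and 1.59 in S3_C, and 4.19, 10.3 and 3.74 in S3_S. Both were highest in S3_S replicate 2, next highest in S1 replicate 2, and lowest in S3_C replicate 2. CESA4 and CESA8, which make the cellulose of secondary walls in xylem, stayed low, with at most 3.12 and 2.03 FPKM, in S3_S replicate 3 in both cases. Other entries, without a description, were highest in the red center. The entry that merges Bo4g178130 with 3 neighbors had 5.53, 1.37 and 0.785 FPKM in S1, 1.58, 5.35 and 15.9 in S2, 11.6, 33.7 and 2.98 in S3_C, and 0.930, 0.841 and 1.86 in S3_S, and was 1 of the 2 members lower in S3_S than in S3_C at an unadjusted p under 0.05. Its highest value was in S3_C replicate 2, and Bo4g178120, with the adjoining locus number, was likewise highest there at 9.94 FPKM and at most 1.43 elsewhere. Similar gene copies may share reads, and how the authors' counting divides these is not given in the sources used here. Without S3_C replicate 2, the family held 4 members higher in the margin and 0 lower at an unadjusted p under 0.05.

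**Figure D4:**
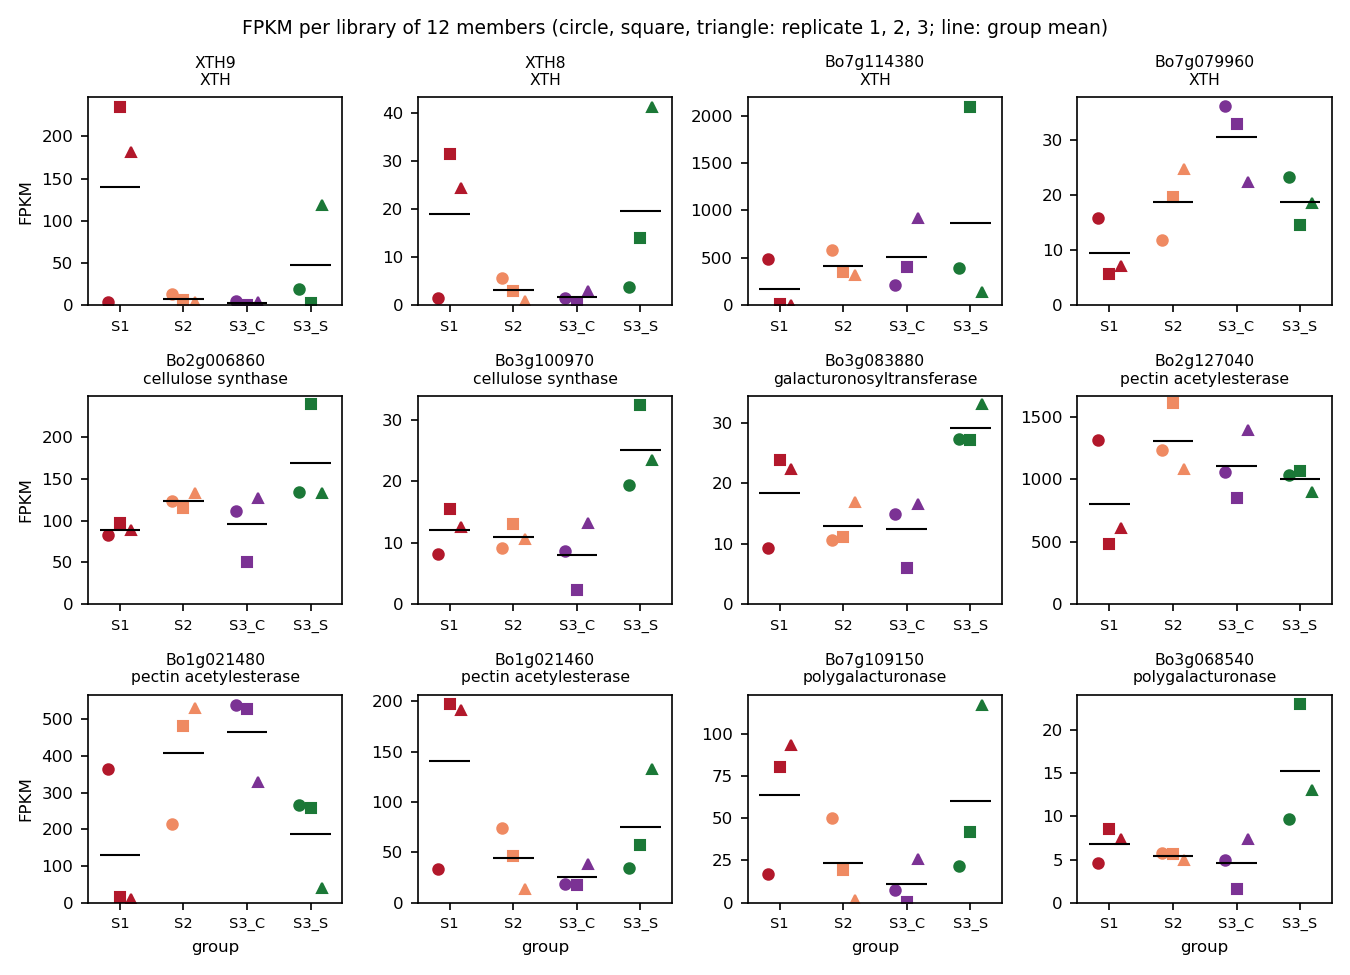
FPKM (vertical axes, starting at 0 and scaled separately) of 12 members in every library, by group, with circles, squares and triangles for replicates 1, 2 and 3 and a line at the group mean. The 3 green S3_S points lie above all others for Bo2g006860, Bo3g100970, Bo3g083880 and Bo3g068540, and S1 replicates 2 and 3 stand together with S3_S replicate 3 for XTH9, XTH8, Bo1g021460 and Bo7g109150.

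The galacturonosyltransferase family, which is described in the table as hexosyltransferases, covered a range of mean levels from 1.43 to 19.1 FPKM. Bo3g083880 was the member with the second highest mean, with 9.22, 23.8 and 22.4 FPKM in S1, 10.6, 11.0 and 16.9 in S2, 15.0, 5.97 and 16.6 in S3_C, and 27.3, 27.2 and 33.1 in S3_S. Its 3 margin libraries were the highest of all, and S3_S and S3_C differed by 1.27 ± 0.41 (adjusted p = 0.476). Bo9g151500, the most abundant, had 17.1, 25.1 and 27.1 FPKM in S1, 15.2, 17.9 and 15.6 in S2, 13.4, 17.9 and 19.4 in S3_C, and 15.7, 17.2 and 28.1 in S3_S. It was highest in S1 replicates 2 and 3 and S3_S replicate 3, and its S2 and S1 groups overlapped, with a difference of -0.46 ± 0.26 between S2 and S1 (adjusted p = 0.426). Bo2g012580 had 1.72, 1.54 and 0.939 FPKM in S1, 1.53, 1.07 and 1.19 in S2, 1.0, 0.558 and 1.12 in S3_C, and 2.11, 3.43 and 2.23 in S3_S, again highest in the 3 margin libraries, and differed between S3_S and S3_C by 0.92 ± 0.25 (adjusted p = 0.476). GAUT3, a galacturonosyltransferase named by symbol and outside the rule, lay between 7.34 and 15.3 FPKM. The class median difference between S3_S and S3_C was 0.43, and 20 of 23 members were above 0 (87.0%, against 65.5% of all tested genes).

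XTH entries swung widely between libraries, and most of the swings did not follow the 4 groups. Bo7g114380, the most abundant XTH at a mean of 492 FPKM, had 485, 15.8 and 4.22 FPKM in S1, 579.5, 347 and 315 in S2, 209, 408 and 919.7 in S3_C, and 394, 2088 and 136 in S3_S. It was low in S1 replicates 2 and 3 and next lowest in S3_S replicate 3, and S1 replicate 1 stood with the S2 libraries. The difference between S3_S and S1 was 3.79 ± 1.45 (adjusted p = 0.824). Without S1 replicate 1 it was 5.69 ± 1.02 (adjusted p = 0.0390).

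XTH9 showed nearly the mirror image, with 4.01, 235 and 182 FPKM in S1, 13.2, 6.75 and 3.50 in S2, 4.75, 0.400 and 3.37 in S3_C, and 19.4, 3.25 and 119 in S3_S. Its 3 high libraries were S1 replicates 2 and 3 and S3_S replicate 3, and no other library passed 19.4 FPKM. S3_C and S1 differed by -4.19 ± 1.46 (adjusted p = 0.213), and by -5.99 ± 1.15 without S1 replicate 1 (adjusted p = 0.00896). Bo4g186440, a low XTH, had 0, 6.20 and 3.44 FPKM in S1, 0.163, 0.0534 and 0 in S2, 0, 0 and 0 in S3_C, and 0.123, 0.180 and 1.45 in S3_S, where 0 means listed at 0. It had the same 3 high libraries, reached 1 FPKM in no other and passed the filter only through them. S3_C and S1 differed by -1.67 ± 0.60 (adjusted p = 0.213), or by -2.50 ± 0.36 without S1 replicate 1 (adjusted p = 0.00542).

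Bo7g079960 was the XTH with the smallest p over the 4 groups, with 15.8, 5.68 and 7.16 FPKM in S1, 11.8, 19.6 and 24.8 in S2, 36.2, 32.9 and 22.4 in S3_C, and 23.4, 14.5 and 18.6 in S3_S. It was highest in the red center, where the group mean was 30.5 ± 7.23 FPKM, and lowest in S1 at 9.54 ± 5.45 FPKM (SD, n = 3), and these 2 groups did not overlap. The difference was 1.67 ± 0.38 (adjusted p = 0.213), and 2.07 ± 0.33 without S1 replicate 1 (adjusted p = 0.00625).

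Another 4 XTH entries, chosen after their values were seen, shared a pattern of their own. Bo2g030310, which the table annotates by projection from the Arabidopsis touch-inducible XTH gene TCH4, had 0.465, 0.121 and 0.0726 FPKM in S1, 0.0649, 1.15 and 15.6 in S2, 26.7, 1.80 and 2.40 in S3_C, and 47.8, 1.67 and 0.575 in S3_S. The merged entry Bo9g133260 with Bo9g133270 had 0.137, 0.646 and 0.233 FPKM in S1, 0.166, 0.210 and 6.32 in S2, 11.6, 0.332 and 0 in S3_C, and 92.9, 0.558 and 0.518 in S3_S. Bo7g114390 had 0.122, 0.379 and 0.109 FPKM in S1, 0.220, 0.102 and 6.92 in S2, 8.90, 0.194 and 0.835 in S3_C, and 25.5, 0.0602 and 0.960 in S3_S. XTR6 had 0.223, 0 and 0.0335 FPKM in S1, 0.0874, 0.267 and 3.60 in S2, 5.23, 0.520 and 0.190 in S3_C, and 10.5, 0.344 and 0.106 in S3_S. In all 4 the high libraries were S2 replicate 3, S3_C replicate 1 and S3_S replicate 1, 1 from each of 3 groups, and S3_S replicate 1 was the highest. Over all tested genes, 272 (0.997%) had these as their 3 highest libraries, and the 4 XTH entries were the only members among them. XTR6, Bo7g114390 and the merged entry reached 1 FPKM in no other library and passed the filter only through these, so their pattern follows in part from the filter. S2 replicate 3 and S3_C replicate 1 also had r = 0.95 with each other over all tested genes.

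**Figure D5:**
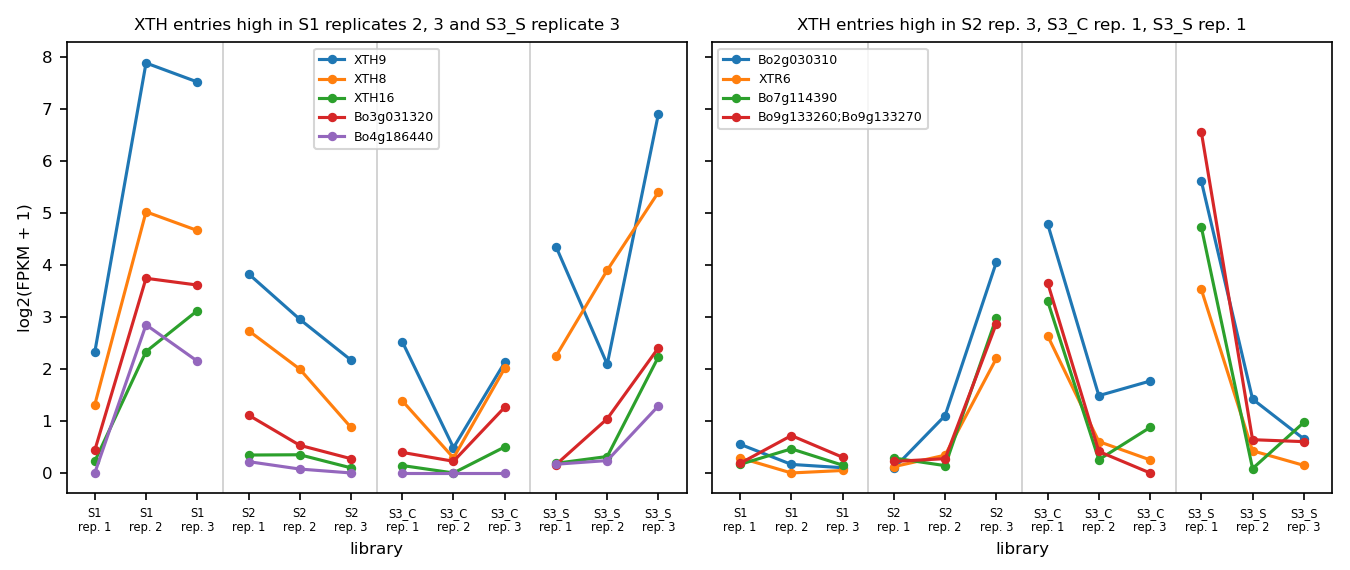
Expression (vertical axis, log2(FPKM + 1)) of 9 XTH entries in the 12 libraries (horizontal axis), with points joined within a group for legibility and not as a course. The entries on the left, XTH9, XTH8, XTH16, Bo3g031320 and Bo4g186440, are high in S1 replicates 2 and 3 and S3_S replicate 3, and those on the right, Bo2g030310, XTR6, Bo7g114390 and the merged entry, in S2 replicate 3, S3_C replicate 1 and S3_S replicate 1.

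The polygalacturonase family, which cuts pectin backbones, had fitted levels higher in S1 than in S2, and likewise than in S3_C, for 15 of 16 members (93.8%, against 57.1% and 62.6% of all tested genes). The count was also 15 in both comparisons without S1 replicate 1. That library had the lowest median deviation of the class in S1, -0.40 against 0.60 and 0.45. Leaving it out therefore cannot show whether the count rests on S1 replicates 2 and 3. Bo1g037200, Bo5g012160 and Bo8g109380 passed the filter only through S1 replicates 2 and 3 and S3_S replicate 3. Bo7g109150, the most abundant, had 17.0, 80.6 and 93.1 FPKM in S1, 50.0, 19.6 and 1.67 in S2, 7.44, 0.246 and 26.0 in S3_C, and 21.7, 42.1 and 117 in S3_S. S1 replicates 2 and 3 and S3_S replicate 3 were again its 3 highest libraries, and S3_C and S1 differed by -2.98 ± 1.27 (adjusted p = 0.219), or by -3.74 ± 1.38 without S1 replicate 1 (adjusted p = 0.0759). The entry merging Bo4g111100 and Bo4g111120 had 35.3, 40.8 and 34.8 FPKM in S1, 44.7, 23.3 and 21.8 in S2, 18.7, 18.9 and 29.0 in S3_C, and 25.4, 23.9 and 20.3 in S3_S. All 3 S3_C values lay below all 3 S1 values, with a difference of -0.74 ± 0.28 in the fit (adjusted p = 0.213).

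The other pair named by the rule were highest in the margin. Bo3g068540 had 4.56, 8.53 and 7.36 FPKM in S1, 5.76, 5.64 and 4.97 in S2, 5.01, 1.55 and 7.38 in S3_C, and 9.68, 23.0 and 13.1 in S3_S. Its margin libraries were the 3 highest, and S3_S and S3_C differed by 1.61 ± 0.43 (adjusted p = 0.476). Bo5g123630 had 6.18, 16.7 and 11.2 FPKM in S1, 11.2, 5.33 and 5.15 in S2, 4.35, 1.73 and 8.84 in S3_C, and 9.56, 22.1 and 21.0 in S3_S, with the 3 S3_S libraries above the 3 of S3_C and overlapping with S1 and S2, and a difference of 1.74 ± 0.52 (adjusted p = 0.476).

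Only 5 of the 19 pectinesterases among the members were tested. Other entries described as pectinesterases lacked the wall organization term and were not members, such as Bo7g087250 with 11.6 to 25.2 FPKM. The most abundant entry merges Bo1g134400 with 4 neighboring pectinesterases and had 49.8, 44.9 and 36.3 FPKM in S1, 32.1, 37.2 and 28.5 in S2, 28.0, 24.3 and 94.7 in S3_C, and 63.7, 48.5 and 70.1 in S3_S. S3_C replicate 3 was highest and the other S3_C libraries were lowest, so the groups overlapped. Bo5g130430 had 21.5, 85.8 and 69.1 FPKM in S1, 30.8, 28.2 and 12.3 in S2, 13.3, 19.6 and 28.8 in S3_C, and 23.9, 34.5 and 68.0 in S3_S. It was highest in S1 replicates 2 and 3 and S3_S replicate 3, with a difference of -1.32 ± 0.56 between S3_C and S1 (adjusted p = 0.219), and of -1.92 ± 0.50 without S1 replicate 1 (adjusted p = 0.0234). Bo3g127410, described as an invertase and pectin methylesterase inhibitor superfamily member, reached 3.14 FPKM in S1 replicate 2 with the same 3 libraries on top. S3_C and S1 differed by -1.18 ± 0.48 (adjusted p = 0.215), and by -1.63 ± 0.44 without S1 replicate 1 (adjusted p = 0.0275).

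Pectin acetylesterases included the most abundant member of all. Bo2g127040 had 1319, 482 and 611 FPKM in S1, 1239, 1612 and 1081 in S2, 1060.0, 854 and 1398 in S3_C, and 1037, 1068 and 897 in S3_S, a mean of 1055 FPKM. It was lowest in S1 replicates 2 and 3, its S3_S values lay below all of its S2 values, and its groups overlapped in the other comparisons, with a difference of 0.82 ± 0.52 between S2 and S1 (adjusted p = 0.463).

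A pair of pectin acetylesterases with nearby locus numbers showed opposite patterns. Bo1g021480 had 363, 14.4 and 10.5 FPKM in S1, 213, 482 and 531 in S2, 540.0, 527 and 329 in S3_C, and 265, 258 and 41.3 in S3_S. It was low in S1 replicates 2 and 3 and in S3_S replicate 3 and high in all other libraries. S3_C and S1 differed by 3.50 ± 1.16 (adjusted p = 0.213), and by 5.09 ± 0.74 without S1 replicate 1 (adjusted p = 0.00552). Bo1g021460, named after its values were seen, had 33.9, 197 and 191 FPKM in S1, 73.7, 46.5 and 14.0 in S2, 18.8, 17.9 and 38.7 in S3_C, and 34.9, 56.9 and 133 in S3_S, with its highest values in exactly those 3 libraries. Without S1 replicate 1, S3_C and S1 differed by -2.99 ± 0.69 on the log2 scale (adjusted p = 0.0159). Whether reads are shared between the pair was not tested. Bo3g158710 had 34.1, 115 and 81.7 FPKM in S1, 43.7, 37.8 and 29.5 in S2, 25.5, 30.0 and 38.7 in S3_C, and 46.6, 73.2 and 83.8 in S3_S, and differed between S3_C and S1 by -1.12 ± 0.41 (adjusted p = 0.213), or -1.62 ± 0.31 without S1 replicate 1 (adjusted p = 0.00896).

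Of the 3 remaining members, IRX14, a glycosyltransferase of xylan backbone synthesis in Arabidopsis, had 6.02, 4.70 and 3.31 FPKM in S1, 5.62, 3.65 and 3.78 in S2, 3.64, 3.14 and 5.46 in S3_C, and 7.89, 6.31 and 5.27 in S3_S. The margin mean was the highest, but S3_S and S3_C overlapped, and they differed by 0.57 ± 0.27 (adjusted p = 0.476). Bo3g054530, a nucleotide-diphospho-sugar transferase by its description, had 2.00, 3.74 and 4.02 FPKM in S1, 2.78, 2.10 and 2.23 in S2, 1.91, 1.58 and 1.74 in S3_C, and 2.46, 4.75 and 4.15 in S3_S. Its 3 margin values lay above all 3 of the red center, with a difference of 0.77 ± 0.27 (adjusted p = 0.476). Between S3_C and S1 it differed by -0.83 ± 0.26 without S1 replicate 1 (adjusted p = 0.0422). Bo7g049750, described only as a glycosyltransferase, stayed between 2.46 and 5.60 FPKM, with overlapping groups.

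Across classes, 34 of the 102 members had S1 replicates 2 and 3 and S3_S replicate 3 as their 3 highest libraries (33.3%, against 17.9% of all tested genes), a set of libraries noticed after the values were seen. They were 9 of 16 polygalacturonase family members, 8 of 23 galacturonosyltransferases, 7 of 18 XTH entries, 6 of 14 pectin acetylesterases, 2 of 5 pectinesterases and 2 of 23 cellulose synthase family members. Several had nearly all of their signal in those libraries. The 3 given here reached 1 FPKM in no other library and passed the filter only through them. The same holds for Bo1g037200, Bo4g098930, Bo4g186440, CESA8, XTR7, Bo8g109380 and Bo2g160790. Their confinement to these libraries is therefore no separate result, and the count of 34 follows in part from the filter. Bo5g012160, a polygalacturonase, had 6.72, 14.5 and 3.30 FPKM in them and at most 0.0765 in the other 9. The pectin acetylesterase Bo7g095150 had 19.9, 8.84 and 7.40 FPKM there and at most 0.518 elsewhere. XTH16 had 4.04, 7.69 and 3.70 FPKM and at most 0.414 elsewhere. By contrast 8 members (7.84%, against 0.862% of all tested genes) had the 3 S3_S libraries on top, namely 4 galacturonosyltransferases, 3 cellulose synthase family members and 1 polygalacturonase.

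Some markers of dividing cells and xylem were high in the same libraries, and others were not. PCNA1, a DNA replication clamp of dividing cells, had 0.164, 9.10 and 12.2 FPKM in S1, 0.330, 0.409 and 0.130 in S2, 0.223, 0.210 and 0.401 in S3_C, and 0.0992, 0.759 and 5.37 in S3_S. CDC2B, a cell cycle kinase, had 0.164, 6.52 and 11.1 FPKM in S1, 0.165, 0.220 and 0.163 in S2, 0.223, 0.123 and 0.233 in S3_C, and 0.599, 0.354 and 3.04 in S3_S. Of the dividing cell list 4 of 5 genes were matched, with a summed level of 23.1 to 42.8 FPKM in S1, 11.2 to 28.1 in S2, 19.3 to 28.2 in S3_C and 18.8 to 29.7 in S3_S. Its largest contributor, CYC1, did not follow that pattern, with 22.8, 14.5 and 19.5 FPKM in S1, 10.7, 22.8 and 27.8 in S2, 26.1, 27.8 and 18.7 in S3_C, and 19.2, 17.7 and 21.3 in S3_S. KNOLLE (SYP111 in the table) was listed at 0 in 10 libraries. XCP1, a protease of xylem vessels, had 0.460, 5.67 and 2.87 FPKM in S1, 0.545, 0.852 and 0.254 in S2, 0.360, 0.396 and 0.454 in S3_C, and 0.903, 0.484 and 7.08 in S3_S. With CESA4 and CESA8, which are members themselves, the 3 matched xylem genes of 6 summed to 1.29 to 8.41 FPKM in S1, 0.461 to 2.53 in S2, 0.955 to 2.35 in S3_C and 2.00 to 12.2 in S3_S. The 5 matched photosynthesis markers of 7 summed to 4535, 664 and 633 FPKM in S1, to 2477 to 5432 in S2, to 2559 to 5862 in S3_C and to 1998 to 3303 in S3_S. The part of these cell types in the members' levels was not tested.

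Set against S1, the earliest leaf, the later groups depended on S1 replicate 1. In S2 against S1 the members' median log2 change was -0.24 (-0.09 over all tested genes), and 37 of 102 lay above 0 (36.3%, against 42.9%). The unadjusted p was under 0.05 for 4 higher (3.92%, background 3.7%) and 8 lower (7.84%, background 8.39%). In S3_C against S1 the median was -0.44 (-0.18 over all), and 32 lay above 0 (31.4%, against 37.4%). At the same limit 7 were higher (6.86%, background 6.12%) and 25 lower (24.5%, background 15.8%). The 25 were 6 polygalacturonases, 5 XTH entries, 5 galacturonosyltransferases, 5 pectin acetylesterases, 2 pectinesterases, 1 cellulose synthase family member and 1 other. In S3_S against S1 the median was 0.18 (-0.02 over all), and 67 lay above 0 (65.7%, against 48.4%). At the same limit 11 were higher (10.8%, background 2.9%) and 1 lower (0.980%, background 2.79%). The 11 became 2 without S1 replicate 3 (background 1.49%) and 2 without S3_S replicate 2 (background 1.28%), both near the background. Without S3_S replicate 3, 15 were higher and 11 lower (background 5.22% and 6.65%), and without S1 replicate 1, 9 were higher and 14 lower (background 7.49% and 13.2%). In S2 against S1 the median was -0.38 without S1 replicate 1 and -0.11 without S1 replicate 2 (-0.12 and -0.08 over all genes). The 8 lower became 34 without S1 replicate 1 (background 21.5%), 0 without S1 replicate 2 (1.38%), 0 without S1 replicate 3 (1.34%), 2 without S2 replicate 2 (4.13%) and 2 without S2 replicate 3 (3.18%). The median in S3_S against S1 was -0.0077 without S1 replicate 1 and 0.074 without S3_S replicate 3, and that in S3_C against S1 was -0.19 without S3_C replicate 2. These 3 comparisons share the S1 libraries. Median-of-ratios scaling gave medians of -0.12, -0.25 and 0.19, against 0.02, 0.01 and -0.01 over all genes. In S3_C against S1 it left 10 higher and 15 lower, against 10.0% and 10.8% of all tested genes. The 25 became 1 without S1 replicate 2 (background 4.64%), 2 without S1 replicate 3 (4.30%), 12 without S3_C replicate 1 (8.77%), 7 without S3_C replicate 2 (5.67%) and 42 without S1 replicate 1 (26.4%). Without S1 replicate 2 or 3 the members' share was below that of all genes, and without S3_C replicate 2 it was near it.

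Without S1 replicate 1, which leaves 2 S1 libraries and was left out because its profile stood apart, limma called 22 members in S2 against S1, 30 in S3_C against S1 and 2 in S3_S against S1. The adjusted p values of this fit follow a choice made on the same values and describe the remaining libraries only. In S2 against S1, 4 members were called higher (background 4.69%) and 18 lower (background 10.9%). In S3_C against S1, 6 were called higher (background 6.41%) and 24 lower (background 16.6%). In S3_S against S1, Bo7g114380 was called higher (background 0.363%) and Bo4g186440 lower (background 1.03%). The 24 lower in S3_C were 6 XTH entries, 6 pectin acetylesterases, 4 polygalacturonases, 4 galacturonosyltransferases, 2 pectinesterases, 1 cellulose synthase family member and 1 other. They included XTH8, which averaged 1.63 ± 1.41 FPKM in S3_C and had 1.48, 31.4 and 24.3 FPKM in S1, with a change of -3.61 ± 0.85 (adjusted p = 0.0168). Bo7g095150 changed by -3.67 ± 0.71 (adjusted p = 0.00918) and Bo5g012160 by -3.42 ± 0.57 (adjusted p = 0.00664). Both passed the filter only through S1 replicates 2 and 3 and S3_S replicate 3. So did Bo1g037200, Bo4g098930, Bo4g186440, XTH16, Bo8g109380 and Bo2g160790 among the 24. Apart from Bo2g160790, the entries that passed in this way were also among the 18 lower in S2. The counts of 24 and 18 therefore follow in part from the filter. The 6 higher were the XTH entries Bo7g114380, Bo7g079960 and Bo3g175630, the pectin acetylesterase Bo1g021480 and 2 merged cellulose synthase family entries. With S3_S replicate 3 also left out, 29, 35 and 18 members were called in S2, S3_C and S3_S against S1 (background 19%, 25.1% and 11.3%).

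Of the 6 comparisons, S3_C against S2 had the members' median nearest to 0. In S3_C against S2 the median was -0.07 (-0.09 over all tested genes), and 40 of 102 lay above 0 (39.2%, near the 36.8% of all tested genes). At an unadjusted p under 0.05, 0 members were higher (background 0.642%) and 0 lower (background 0.587%). In S3_S against S2 the median was 0.48 (0.10 over all), and 87 lay above 0 (85.3%, against 60.1%). At the same limit 13 were higher (12.7%, background 2.04%) and 0 lower (background 1.25%). All S3_S libraries lay above all S2 libraries in 26 members (background 11.2%) and below in 3 (background 4.63%). The 13 were 5 cellulose synthase family members, 4 polygalacturonases, 3 galacturonosyltransferases and 1 pectin acetylesterase. The count was 2 without S3_S replicate 2 (background 1.58%), which is near the share of all genes, 7 without S2 replicate 2 (1.16%) and 8 without S2 replicate 3 (1.11%). Without S3_S replicate 3 it was 11 (1.90%), and the median was 0.33 against 0.07 over all genes. In S3_C against S2 the median was 0.046 without S3_C replicate 2. This comparison and the one between margin and center share the S3_S libraries.

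The lists of named wall-building genes matched few entries, and limma called 0 of these in any comparison. RHM1, a rhamnose synthase that supplies pectin precursors, had 4.49, 8.43 and 7.85 FPKM in S1, 5.31, 5.07 and 3.25 in S2, 3.65, 1.04 and 6.25 in S3_C, and 8.50, 13.7 and 9.96 in S3_S. Its 3 margin values were the highest of the 12. HSR8, the sugar nucleotide epimerase MUR4 of Arabidopsis, had between 2.47 and 7.22 FPKM with overlapping groups. These were the 2 matched of 9 sugar nucleotide genes. Of the xyloglucan synthesis genes 2 of 6 were matched and 1 was tested, the fucosyltransferase FT1, at up to 3.31 FPKM. Of the xylan list IRX14 and IRX9 were matched, both annotated to wall organization themselves, and IRX9 reached at most 0.607 FPKM. The cellulose synthase complex list matched CESA2 and CESA5 alone among 8 genes, and the pectin synthesis, wall sensor and secondary wall regulator lists matched 0. Entries outside the members whose description names an expansin, extensin, pectinesterase, XTH, polygalacturonase or cellulose synthase numbered 91, with 23 tested. Most of the 23 were described as pectinesterases or pectin methylesterases. At an unadjusted p under 0.05, 6 of the 23 were higher and 0 lower in S3_S than in S3_C (background 7.47% and 2.89%), and 1 was higher and 9 lower in S3_C than in S1 (background 6.12% and 15.8%).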

How the data were processed

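Poly(A) RNA from 12 leaf libraries was sequenced in paired-end reads, and the authors deposited FPKM per gene and library. Bowtie 0.12.2, HISAT2 2.0 and StringTie 1.3.0 are listed, with no role stated, in the submitters' processing notes. Neither those notes nor the file headers state a genome build or annotation. Read counts were not used here, so depth and its precision are unknown. Between 19.7% and 23.3% of entries were listed at 0 per library, and such a value is described only as listed at 0.

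Members and lists were chosen with earlier results of these data known. Classes were planned from product names and symbols alone, and molecular function terms were added because some entries have no description. A gene was tested if 3 or more libraries reached 1 FPKM. Tests used limma 3.58.1 under R 4.3.3, in 1 fit of the log2(FPKM + 1) values of all 12 libraries to the 4 groups, with a trended prior and two-sided moderated statistics. Benjamini-Hochberg adjustment covered all tested genes, separately for the 6 comparisons. The pseudocount of 1 understates changes of low genes. The fit was tested on simulated data with independent noise in each gene and changes added to S3_S alone. No simulated library stood apart from its group across genes, so that test does not cover such libraries. The text names, in each class, the 2 members with the highest mean and the 2 with the smallest F test p, and any member called. Where a difference with all libraries is given for such a member, it is from the comparison with its smallest unadjusted p of the 6. Lists were matched by Arabidopsis identifier, symbol or description. Groups follow the sample titles. Same-numbered S3_S and S3_C libraries deviated together (r = 0.27, 0.20 and 0.16 across genes), a pairing read from the data since the labels do not state one. In the other 5 comparisons at least 1 pair did not. Alternatives were a pseudocount of 0.1, no filter, median-of-ratios scaling, a replicate block, leaving out each library, leaving out S1 replicate 1 with S3_S replicate 3, and, added after seeing the data, leaving out entries of more than 1 annotated gene and, for the group with the highest mean, the libraries that stood apart.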

Additional observations from a re-analysis of the deposited data

How the results depend on the processing

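The count of members called stayed at 0 in all 6 comparisons and in the F test under a pseudocount of 0.1, no filter, median-of-ratios scaling, the replicate block, the fit without entries of more than 1 annotated gene, and leaving out any single library except S1 replicate 1. Leaving out each library gave 0 to 22 members called in S2 against S1, 0 to 30 in S3_C against S1, 0 to 2 in S3_S against S1 and 0 to 15 in the F test. Without S1 replicate 1 and S3_S replicate 3 these counts were 29, 35, 18 and 22. Over all tested genes, where the fit with all libraries called 2, 2, 2 and 2, leaving out each library gave 1 to 4262, 1 to 6287, 1 to 381 and 1 to 2355, and leaving out both gave 5170, 6852, 3079 and 3746. No filter called 1, 4 and 1 genes in S2, S3_C and S3_S against S1, and the replicate block called 1 gene in each of these and 1 in the F test. Between the other groups, where 0 genes were called, leaving out each library gave 0 to 4 in S3_C against S2, 0 to 2 in S3_S against S2 and 0 to 5 in S3_S against S3_C. No filter gave 2 in S3_C against S2 and 3 in S3_S against S3_C, and a pseudocount of 0.1 gave 2 in the latter. The members' median log2 change in S3_C against S1 was -0.048 without the filter and -0.61 to -0.19 when each library was left out, the last without S3_C replicate 2. In S3_S against S1 it was -0.084 without S1 replicate 1 and S3_S replicate 3 and -0.0077 to 0.26 when each library was left out. Without the filter it was 0.056 in S3_S against S2 and 0.054 in S3_S against S3_C. Within S3_S against S3_C the replicate block left 23 members higher and 2 lower at an unadjusted p under 0.05 (background 6.90% and 2.63%). The members' median crossed 0 in S3_S against S1 without S1 replicate 1, and in S3_C against S2 without S3_C replicate 2. Of the 24 named members, 10 were called in at least 1 comparison without S1 replicate 1, and 10 with S3_S replicate 3 left out as well. The background in S2, S3_C and S3_S against S1 was 15.6%, 23.1% and 1.40% in the former fit. In the latter it was 19.0%, 25.1% and 11.3%. Named members were chosen in part by the smallest F test p on these values, so their share called follows in part from that choice. The cause of the differences between settings was not tested. With depth unknown, differences of members near 1 FPKM are the least certain.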

Other observations

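Members too low to be tested also had single libraries or sets of libraries on top. The polygalacturonase Bo8g059580 had 4.35 and 2.91 FPKM in S1 replicates 2 and 3, 0.676 in S3_S replicate 3, and was listed at 0 in the other 9 libraries. ATCSLD5, a cellulose synthase-like D gene, had 0.774 and 1.69 FPKM in S1 replicates 2 and 3 and 2.11 in S3_S replicate 3, with at most 0.183 elsewhere. IRX14-L, an IRX14 paralog in Arabidopsis, had 4.94 FPKM in S3_S replicate 1 and at most 0.356 in any other library. All 3 were chosen after their values were seen.

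Outside the members, the mannan synthase family gene ATCSLA03 passed the filter only through S1 replicates 2 and 3 and S3_S replicate 3. It had 3.60, 4.23 and 5.0 FPKM in them and at most 0.417 in the other 9. PME61, a pectin methylesterase, showed the reverse, with 0.656 and 0.763 FPKM in S1 replicates 2 and 3, 0.731 in S3_S replicate 3 and at least 3.49 in the others, the highest being 17.0 in S2 replicate 2. The pectinesterase Bo8g093020 was highest in the margin, with 10.0, 20.8 and 20.0 FPKM in S3_S and 4.38, 0.346 and 9.50 in S3_C, and overlapped with S2, where replicate 1 had 10.6.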
